A study of Mus musculus with 8 samples.

Results

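Amtn and Odam encode amelotin and the odontogenic ameloblast-associated protein, matrix proteins of the ameloblasts that finish the enamel. They were taken from the deposited count table by these gene symbols, and they make up 2 of its 54532 genes. Both were among the 16440 genes with enough counts to be tested. The table comes from RNA-seq of first molar enamel organs of C57BL/6 mice, genotype wt and untreated, dissected at postnatal day 5 (P5, secretory stage) or day 12 (P12, maturation stage). Each library is a pool of 5 pups, from microdissected molars whose pulp chambers had been cleared of soft tissue. With 4 libraries at each age, numbered 1, 3, 4 and 5 at P5 and 1, 2, 3 and 4 at P12, n = 4 pools in both groups. Libraries were made from RNA captured by its poly(A) tail, and whole tissue was sequenced, so that each value is a mean over all cell types in the pool.

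Ameloblasts first secrete the enamel matrix, then pass through a short transition and become maturation ameloblasts, which remove matrix protein and supply mineral. At the transition they lay down a specialized basal lamina that attaches their apical side to the maturing enamel, and amelotin and Odam protein are found in it together with Scpppq1 protein and a laminin. All 3 genes belong to the secretory calcium-binding phosphoprotein (SCPP) family, and their proteins are also found where the junctional epithelium of the gum attaches to the tooth.

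Library sizes at P5 were 16963323, 19251202, 16574548 and 20262601 counts (libraries 1, 3, 4 and 5), and at P12 they were 22013456, 19520437, 18036016 and 17588152 (libraries 1 to 4). To normalize, each count was divided by its library's effective size (TMM method of edgeR) and multiplied by the mean of these sizes, 19006280. No library was a copy of another, since the 12 pairs within an age had chi-square values of 3.74 to 52.2 per degree of freedom where counting noise alone gives about 1. Adjusted p-values are for the difference between the ages, judged against the spread between these pools. Libraries differed in how many genes lay away from the others of their age. In P5 library 5, 61 of 11086 genes with a mean of at least 100 normalized counts were at least 1 log2 unit below the other P5 libraries and 14 that far above, against 0 to 15 below and 4 to 9 above in P5 libraries 1, 3 and 4. In P12 library 4, 155 of 11321 genes were that far below and 76 that far above the other P12 libraries. The counts below and above were 25 and 37 in P12 library 1, 12 and 61 in library 2 and 2 and 10 in library 3. Results for Amtn, Odam and their ratio are given with and without P5 library 5 and P12 library 4, and for some of the other genes and lists.

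Amtn (ENSMUSG00000029282) spans bases 88376108 to 88385916 of chromosome 5 (GRCm38), forward strand, and GENCODE M21 gives it 1 transcript of 9 exons. Odam (ENSMUSG00000009580) lies 482 kb before it on the same strand, from 87885029 to 87894174, with 2 transcripts of 10 and 12 exons. Neither gene shares exonic bases with another (0%). Because both genes rose with age and both were low in P5 library 5, the 250 bases before each start are shown, from RefSeq's promoter table for GRCm38.p6, in which both genes were matched by symbol. The Amtn window is chr5:88375858-88376107 and the Odam window is chr5:87884760-87885009, both on the forward strand. RefSeq starts Odam 19 bases before the start in the count table. Capitals mark runs of at least 9 bases found in both windows, every CCAAT box and every match to the RUNX motif TGTGGT, on either strand.
Amtn: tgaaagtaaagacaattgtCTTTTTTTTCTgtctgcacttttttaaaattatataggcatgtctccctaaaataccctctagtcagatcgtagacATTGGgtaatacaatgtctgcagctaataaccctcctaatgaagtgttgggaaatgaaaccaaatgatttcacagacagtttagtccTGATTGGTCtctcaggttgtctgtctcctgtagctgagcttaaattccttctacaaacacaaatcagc
Odam: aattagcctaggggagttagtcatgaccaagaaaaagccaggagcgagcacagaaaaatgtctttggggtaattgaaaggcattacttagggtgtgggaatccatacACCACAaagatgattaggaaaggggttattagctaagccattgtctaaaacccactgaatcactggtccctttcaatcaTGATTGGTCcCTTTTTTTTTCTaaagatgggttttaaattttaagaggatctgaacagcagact
The run TGATTGGTC lies 68 bases before the start of Amtn and 64 before that of Odam, and it holds a reverse CCAAT box. It was found in 0.664% of the 32851 windows of this length in the table, and CCAAT alone in 33.8%. The windows also share CTTTTTTTT and TTTTTTTTCT, which overlap each other and occur in 3.04% and 1.41% of all windows. A further CCAAT box lies 155 bases before the start of Amtn. The RUNX motif occurs in the Odam window, 143 bases before the start, and in 14.0% of all windows. The SMAD motif GTCTG, which 42.2% of windows hold, was found at 4 places in the Amtn window and 1 in the Odam window. Neither window holds TAATTA (4.84% of windows), TATAAA (12.4%) or TGTTTA (12.03%). The GC content was 37.2% for Amtn and 40% for Odam, against a median of 52.4% over all windows. These are matches of letters only, and binding was not tested.

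Amtn was detected in every library at both ages and rose with age. At P5 it had 19787, 16356, 16750 and 5149 normalized counts (libraries 1, 3, 4 and 5), and at P12 it had 34276, 42585, 56441 and 76919 (libraries 1 to 4). The ages did not overlap, and the lowest P12 library had 1.73 times the count of the highest P5 library. P5 library 5 lay well below the other P5 libraries, and P12 library 4 was the highest of all. The mean rose from 14511 ± 6426 (SD, n = 4 pools) to 52555 ± 18639 (SD, n = 4), which is 3.62-fold, or in log2 units 1.86 ± 0.37 (SE, edgeR, Benjamini-Hochberg adjusted p = 0.00119). The exact permutation test over the 8 libraries gave a two-sided p = 0.0286, the smallest that n = 4 against 4 allows. In bulk tissue, fewer cells of a type and less RNA per cell cannot be told apart.

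Odam rose by more than Amtn and was far above its P5 range in each P12 library. At P5 Odam had 18305, 15868, 16472 and 6497 normalized counts (libraries 1, 3, 4 and 5), and at P12 it had 290679, 365229, 357994 and 346241 (libraries 1 to 4). The ages were far apart, with the lowest P12 library at 15.9 times the highest P5 library, and again P5 library 5 was the lowest. The mean rose from 14286 ± 5295 (SD, n = 4) to 340036 ± 33822 (SD, n = 4), which is 23.8-fold, or in log2 units 4.57 ± 0.30 (SE, edgeR, Benjamini-Hochberg adjusted p = 2.8e-07). The exact permutation test gave the same two-sided p = 0.0286, its smallest possible value. Both members, 2 of 2, were thus higher at P12. Over all 16440 genes tested, 57.2% changed at an adjusted p under 0.05, with 28.8% higher and 28.4% lower, so that a change by itself was common and the size of the change in Odam, rank 97 by log2 fold change, was not. Amtn ranked 740. Scaled by total count alone, 8885 genes were called higher and 2330 lower, in place of 4735 and 4676, and the median log2 fold change of all tested genes moved from 0.01 to 0.38.

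**Figure D1:**
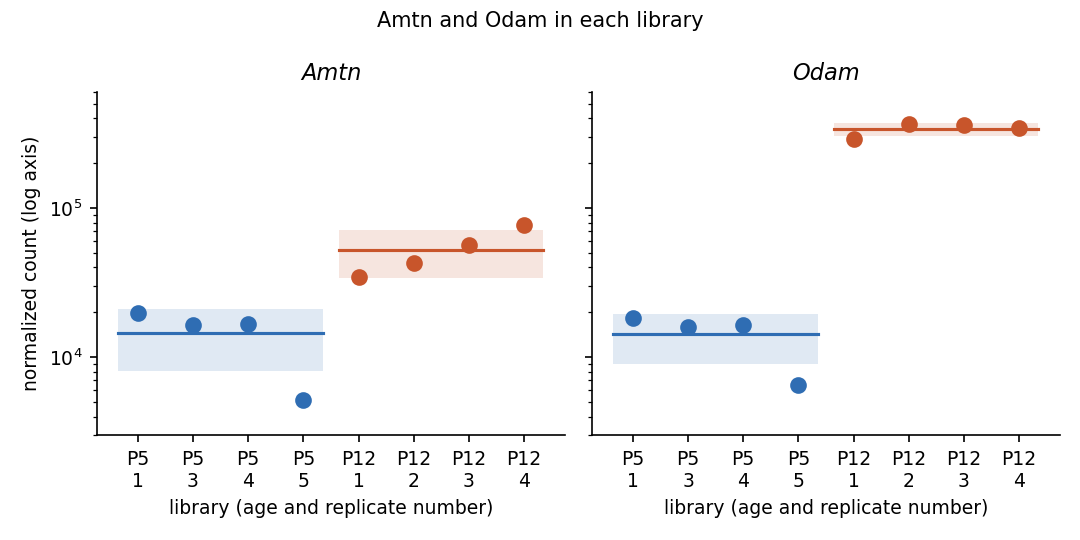
Normalized counts of Amtn (left) and Odam (right) on a log axis, by library, with P5 in blue, P12 in orange, lines at means over 4 pools and bands of ± 1 SD. P5 library 5 is the lowest point in both panels, at 5149 and 6497, and P12 points of Amtn spread from 34276 to 76919 while those of Odam lie between 290679 and 365229.

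At P5, Amtn took between 0.0240% and 0.0907% of all counts in a library and Odam between 0.0303% and 0.0839%. At P12, Amtn took 0.212% to 0.436% and Odam 1.80% to 2.22%. Counting error was small beside these differences, with an exact (Clopper-Pearson) 95% interval of 0.0233% to 0.0247% for Amtn in P5 library 5, the lowest value. Such intervals cover counting error only. Divided by gene length, the P5 level was 14198 ± 6288 (SD, n = 4) normalized counts per kilobase for Amtn and 10382 ± 3848 for Odam. At P12 the level per kilobase was 51424 ± 18238 (SD, n = 4) for Amtn and 247119 ± 24580 for Odam. Among all genes ordered by mean level per kilobase, Amtn went from rank 29 at P5 to rank 10 at P12 and Odam from rank 39 to rank 2. Next after Odam at P12 was Ambn, which encodes the enamel matrix protein ameloblastin, with 173847 per kilobase. Around Amtn the order is loose, since Fth1, a ferritin gene, at 51426 and Amelx, the amelogenin gene, at 50602 differ from it by less than its SD.

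The relation of the genes to each other was read from the ratio of Amtn to Odam within each library, in which library scaling plays almost no part. The log2 ratio of normalized counts, with a pseudocount of 1, at P5 was 0.11, 0.04, 0.02 and -0.34 (libraries 1, 3, 4 and 5), and at P12 it was -3.08, -3.10, -2.67 and -2.17 (libraries 1 to 4). In P5 libraries 1, 3 and 4 the counts of the genes were nearly equal, with 1.02 to 1.08 counts of Amtn for each of Odam, and in library 5, where both were low, it was 0.793. At P12 Odam exceeded Amtn in every library, least so in library 4. The P5 mean was -0.04 ± 0.20 (SD, n = 4) and the P12 mean -2.75 ± 0.44 (SD, n = 4), which differ by -2.72 (exact permutation test, two-sided p = 0.0286). Per unit of gene length, Amtn was above Odam in 4 of 4 P5 libraries, at 1.07 to 1.46 times its level, and below it in 4 of 4 P12 libraries, at 0.157 to 0.299 times. The difference was -2.82 without P5 library 5 and -2.91 without P12 library 4, where 3 libraries against 4 gave an exact permutation p of 0.0571 for either, the smallest that these numbers allow.

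**Figure D2:**
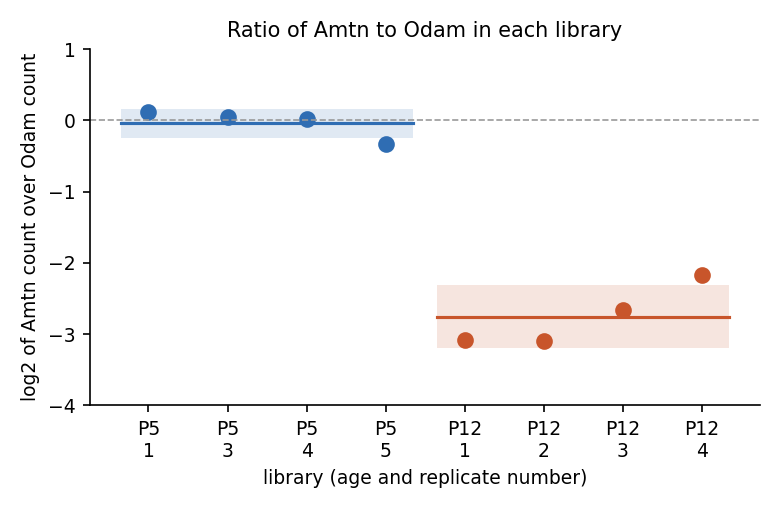
Log2 of the Amtn count over the Odam count in each library, with P5 in blue, P12 in orange, lines at means over 4 pools, bands of ± 1 SD and a dashed line at equal counts. The P5 points lie between -0.34 and 0.11 and the P12 points between -3.10 and -2.17.

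Among the P5 libraries, library 5 lay furthest from the others for both genes. Amtn was there at 0.293 times the level of the other P5 libraries, a log2 difference of -1.77, and only 12 of the 11086 genes with a mean of at least 100 normalized counts at P5 were as low or lower, Amtn included. Odam was at 0.386 times (log2 difference -1.37), with 28 genes as low or lower. The SD of log2 values at P5 was 0.89 for Amtn and 0.69 for Odam. The total count of this library was the highest at P5. Without it the log2 fold change between ages was 1.57 for Amtn (edgeR, Benjamini-Hochberg adjusted p = 4.4e-04) and 4.33 for Odam (adjusted p = 1.8e-08).

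Some genes of the maturation list were low in the same library and others were not. Klk4, the protease that removes enamel matrix, was at 703 normalized counts against 2586 to 3589 in the other P5 libraries, a log2 difference of -2.05. Slc24a4, the gene of the calcium exchanger Nckx4, was at 332.4 against 1581 to 2269 (-2.48), and Car6, a secreted carbonic anhydrase, at 28.6 against 183 to 494 (-3.32). These were the lowest of the list. Car2 (-0.75), Wdr72 (-0.35), Slc26a4 (-0.35) and Cftr (-0.16) were less far below the other P5 libraries. Alpl (0.31), Slc4a2 (0.15) and Itgb6 (0.05) were above them. Of the 10 genes in the maturation list, 5 were at their lowest P5 value in library 5, and the median of their log2 differences was -0.35, where 30.0% of all tested genes were at their lowest there and the median was 0.01. For genes of the secretory stage the median difference was -0.10, with Amelx at -0.06 and Enam at -0.18, although 4 of 5 were lowest in library 5. Of the markers of oral stratified epithelium, 7 of 7 were lowest in library 5, with a median difference of -0.80 and a summed level of 914 where P5 libraries 1, 3 and 4 had 1488 to 1728 (most abundant Krt6a). Erythroid markers were lowest in library 5 in 3 of 3 cases (median -0.84, summed level 16446 against 25764 to 31334, most abundant Hbb-bs). Skeletal muscle markers (median -0.51, summed level 515 against 585 to 862, most abundant Acta1) and macrophage markers (median -0.31, 631 against 690 to 883, most abundant Csf1r) were also lowest there in 3 of 3 cases each. No marker of these lists was at 0. Other lists did not share this, with 0 of 7 dental epithelium (median 0.08), 0 of 3 endothelium (0.17) and 0 of 3 osteoclast markers (-0.18) lowest in library 5. Between these were mesenchyme (3 of 6, -0.07), odontoblast (2 of 3, -0.27), osteoblast (2 of 3, -0.32) and Schwann cell markers (1 of 3, -0.08). What part these differences between pools have in the low Amtn and Odam counts was not tested.

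**Figure D3:**
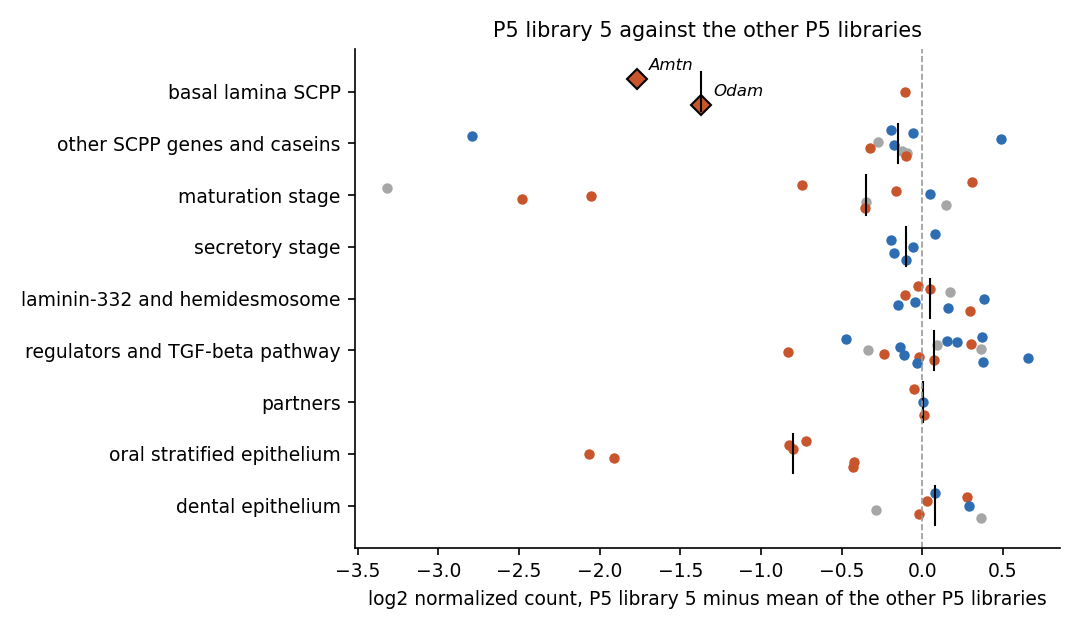
Log2 difference between P5 library 5 and the mean of the other P5 libraries for the tested genes of each list, with diamonds for Amtn (-1.77) and Odam (-1.37), strokes at list medians, and orange for genes higher at P12, blue for lower and grey for neither. Amtn and Odam lie to the left with part of the maturation list, while secretory and laminin genes lie near 0.

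At P12 the genes differed in how much they varied. The coefficient of variation was 35.5% for Amtn and 9.95% for Odam, and the highest library exceeded the lowest 2.24-fold for Amtn and 1.26-fold for Odam. In P12 library 4, Amtn was 0.82 log2 units above the other P12 libraries and Odam 0.04. Secretory genes were also high in this library, with 5 of 5 at their highest P12 value and a median difference of 0.98, and 8 of the 10 maturation genes were at their highest there (median 0.69). Over all tested genes 33.4% were highest at P12 in library 4. Markers of oral stratified epithelium were far lower in it, with a median difference of -3.68. Their summed level was 12379 in library 4 against 40458 to 61658 in the other P12 libraries, and Krt13 was at 510 against 5840 to 11244. Osteoclast markers (median difference -1.07, summed level 3126 against 4914 to 7854, most abundant Ctsk) were lower there too, and no mesenchyme, osteoblast or osteoclast marker was at its highest. Some abundant transcripts were far higher in library 4, among them CT010467.1 (205967 normalized counts against 14990 to 37120) and Gm23935 (134309 against 12237 to 24524), both chosen after their values were seen. What part these differences have in the high Amtn count of library 4 was not tested. Odam was at 346241 in library 4, within the range of the other P12 libraries. Without library 4 the log2 fold change was 1.61 for Amtn (edgeR, Benjamini-Hochberg adjusted p = 0.00106) and 4.56 for Odam (adjusted p = 3.9e-08).

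The third SCPP gene of the basal lamina, Scpppq1, is listed in the table as Gm17660 (ENSMUSG00000091034), for which RefSeq gives Scpppq1 as a synonym, on chromosome 5 from 104070064 to 104077608 on the reverse strand. At P5 Gm17660 had 64.3, 24.6, 43.5 and 38.1 normalized counts (libraries 1, 3, 4 and 5), and at P12 it had 7264, 9920, 8317 and 4370 (libraries 1 to 4). Gm17660 was far higher in every P12 library than in any P5 library, and P5 library 5 was not set apart for it (log2 difference -0.10). In log2 units the rise was 7.47 ± 0.32 (SE, edgeR, Benjamini-Hochberg adjusted p = 1.1e-08), and it was 7.41 without P5 library 5 and 7.65 without P12 library 4. Of its exonic bases 41.0% also lie in exons of Gm43333 on the same strand, which had 820 to 3118 counts at P12, so how reads were shared between them is uncertain. In P12 library 4 Gm17660 was the lowest of its age, 0.95 log2 units below the others, where Amtn was the highest.

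Odam and Amtn both lie in a 621 kb stretch of chromosome 5 that runs from Odam to Enam and holds 14 protein-coding genes. Of these 5 were tested, and the other 9 had at most 2 counts in any library. The 5 did not move together. A tested lincRNA in the stretch, BC037156, chosen after its values were seen, starts 23.75 kb after the start of Odam and rose by 4.67 (edgeR, Benjamini-Hochberg adjusted p = 7.6e-05), from a mean of 3.70 to 94.1 normalized counts. Csn3, the gene of kappa-casein, begins 31404 bases after Odam. It fell from 11449 ± 6251 (SD, n = 4) to 390 ± 154 (SD, n = 4), which is -4.88 in log2 units (edgeR, Benjamini-Hochberg adjusted p = 2.4e-05), -5.24 without P5 library 5 and -5.15 without P12 library 4. At P5 Csn3 too was lowest in library 5, with 14951, 14900 and 13841 normalized counts in P5 libraries 1, 3 and 4 and 2103 in library 5. Ambn begins 70074 bases after Amtn and fell by 2.57 on the log2 scale (adjusted p = 1.5e-05), and Enam, the enamelin gene, fell by 9.95 (adjusted p = 2.4e-08). On their other sides, the nearest protein-coding genes were Prr27 for Odam, with at most 1 count in a library, and Prol1 for Amtn, with at most 2.

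Among the 15 other SCPP and related genes, 10 were tested, of which 2 were higher at P12, 5 lower and 3 neither, with a median log2 fold change of -0.32, which total count scaling turned to 0.06 (4 higher, 4 lower). Amelx, the amelogenin gene and the most abundant of them, fell by 5.74 on the log2 scale. The bone genes Spp1 and Ibsp rose by 2.16 and 1.77. Dmp1, at -0.42 (adjusted p = 0.0488), was no longer called without P12 library 1, 3 or 4 or P5 library 3, 4 or 5 (-0.47 to -0.28), under total count scaling (-0.04) or without the 20 most abundant genes in the scaling (-0.41), and its adjusted p over the alternatives was between 0.0122 and 0.858. The milk casein genes Csn1s1, Csn2, Csn1s2a and Csn1s2b had at most 3 counts in any library, so that Csn3 was the only one of the 5 listed caseins with enough counts to be tested.

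The genes of the other basal lamina and attachment proteins did not follow Amtn and Odam as a group. Of 9 laminin and hemidesmosome genes, 4 rose, 4 fell and 1 did neither, with a median log2 fold change of 0.02. Lama3 and Lamb3, which encode laminin chains, fell, with log2 fold changes of -0.94 and -1.22. Itga6, an integrin chain that binds laminin, rose by 1.87, close to the rise of Amtn, from 5116 ± 329 (SD, n = 4) to 18761 ± 1195 (SD, n = 4), while its partner Itgb4 fell by 0.42. Scaled by total count, Itgb4 was at -0.04 and no longer called, and 5 genes of this list were higher and 3 lower. None of these genes was low in P5 library 5 to the degree of Amtn, with differences between -0.15 and 0.38.

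Of the 10 maturation genes, 6 were higher at P12, 1 was lower and 3 were neither, with a median log2 fold change of 0.84. With DESeq2, limma-voom or no filter, and without P12 library 4, 2 were lower. Total count scaling gave 7 higher and 1 lower (1.21). Wdr72 (3.97), Slc24a4 (3.46), Klk4 (3.22) and Cftr (2.39) rose by more than Amtn and by less than Odam. Itgb6, an integrin gene, was the 1 that fell in the main fit (-1.13), and Car6 was at -0.52 (edgeR, Benjamini-Hochberg adjusted p = 0.574). All 5 secretory genes were lower at P12, with a median of -2.57.

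**Figure D4:**
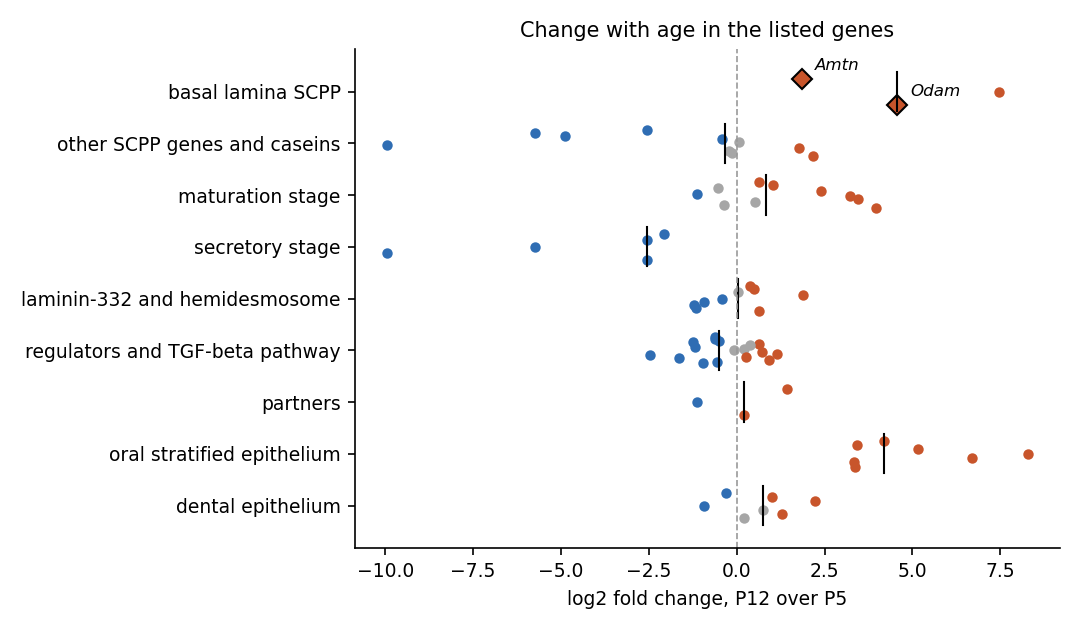
Log2 fold change between P5 and P12 for the tested genes of each list, with diamonds for Amtn (1.86) and Odam (4.57), strokes at list medians, and orange for genes higher at P12, blue for lower and grey for neither. The secretory list lies wholly below 0 and the oral stratified epithelium list wholly above it, with medians of -2.57 and 4.18.

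Regulators that have been studied upstream of Amtn or Odam, Runx factors and the TGF-beta pathway among them, moved in both directions. Of 17 genes, 5 were higher, 9 lower and 3 neither, with a median log2 fold change of -0.50, and under total count scaling 7 were higher and 6 lower (-0.13). Runx2, a transcription factor of ameloblasts and osteoblasts, rose from 2183 ± 565 (SD, n = 4) to 3621 ± 1270 (SD, n = 4), which is 0.73 in log2 units (edgeR, Benjamini-Hochberg adjusted p = 0.0211). Runx2 was also low in P5 library 5 (-0.83) and high in P12 library 4 (0.87), as Amtn was, and without P5 library 5 its adjusted p was 0.0529. Over the alternatives tried, the adjusted p of Runx2 was between 8.7e-04 and 0.0729. Runx1 was at -0.08 (adjusted p = 0.736) and at 0.28 under total count scaling, and without P12 library 4 it was called lower (-0.35). Runx3, a further Runx factor, rose by 1.16. Tgfb1, a ligand, rose by 0.90 while its receptor gene Tgfbr1 fell by 0.97. Satb1, a chromatin organizer and the most abundant of the list, fell by 2.48, and Dlx3, Dlx5, Msx2 and Sp6, transcription factors of ameloblasts, fell, with values from -0.50 to -1.63. For Dlx3, which fell by 0.50, total count scaling gave -0.13 (adjusted p = 0.166, with 5.7e-09 the lowest over the alternatives). Tgfb2 and Bmp2 were called lower, but not under total count scaling (-0.20 and -0.25). Of 3 genes for partner proteins, Arhgef5 rose by 1.42 and Rhoa by 0.20, and Fam20c, the kinase that phosphorylates SCPP proteins, fell by 1.13.

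Markers of other cell types were present at both ages. Of the 7 markers of oral stratified epithelium, 7 were higher at P12, with a median log2 fold change of 4.18 (5 of 7 with limma-voom, 3.55). Their summed level at P5 was 1728, 1488, 1516 and 914 (libraries 1, 3, 4 and 5), at P12 it was 50595, 61658, 40458 and 12379 (libraries 1 to 4), and none of them was at 0. Of the 7 dental epithelium markers 3 were higher, 2 lower and 2 neither (median 0.75), and Krt14 went from 34060 ± 1397 (SD, n = 4) to 159090 ± 19818 (SD, n = 4). For this list total count scaling gave 5 higher and 1 lower (1.13). Its median was 0.45 without P12 library 2 and 0.31 with a replicate block over 6 libraries. Of 6 mesenchyme markers (most abundant Col1a1) 2 were higher and 3 lower, with a median of -0.35 and summed levels of 736028 to 1065134, and total count scaling gave 2 higher, 1 lower and a median of 0.03. Of 3 odontoblast markers (most abundant Dspp) 0 were higher and 1 lower, with a median of 0.08 and summed levels of 148030 to 196703, although the pulp had been removed. Total count scaling gave 2 higher and 0 lower (0.45). Osteoblast (median 0.43), macrophage (0.44) and Schwann cell markers (0.67) were higher in 2 of 3 cases each, and osteoclast (2.34) and endothelium markers (1.02) in 3 of 3. Under total count scaling 3 of 3 osteoblast (0.81), 3 of 3 macrophage (0.82) and 2 of 3 Schwann cell markers (1.04) were higher. Skeletal muscle markers were lower in 3 of 3 (-1.23) and erythroid markers in 1 of 3 (-0.44), where total count scaling gave 2 of 3 (-0.86) and 0 of 3 (-0.07). Erythroid and macrophage markers had their lowest P5 values in library 5. Without that library, 3 of 3 erythroid markers were lower at P12 (-0.62) and 1 of 3 macrophage markers was higher (0.35). That fit called 0 odontoblast markers lower, and Dmp1, the 1 called lower with all libraries, was highest at P5 in library 5. With any single library left out, 2 to 3 skeletal muscle, 0 to 1 odontoblast and 2 to 4 mesenchyme markers were lower. In the same fits 1 to 2 macrophage, 1 to 2 Schwann cell, 2 to 3 osteoblast and 3 to 4 dental epithelium markers were higher. The part of oral and junctional epithelium in the Odam rise was not tested.

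Genes whose profile over the 8 libraries was nearest to each member were found by the root mean square difference between log2 profiles centred on their means. It ran over 11345 tested genes with a mean of at least 100 normalized counts over the 8 libraries. Nearest to Amtn were Slc26a1, a sulfate transporter gene (0.299), Cdkn2b, a cell cycle inhibitor (0.303), Odaph, an enamel gene (0.325), Prg2 (0.348) and Ppm1l (0.369). Slc26a1, Cdkn2b and Odaph rose by 1.87, 1.91 and 1.61. Nearest to Odam were Wnt10b, a Wnt ligand gene (0.233), Emb (0.278), Gsta4 (0.327), Mt1, a metallothionein (0.336), and Gpx3, an extracellular glutathione peroxidase (0.374). They rose by 4.24, 4.84, 4.48, 4.51 and 4.62. Odam was at rank 9303 in the list for Amtn, and Amtn at rank 283 in the list for Odam.

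Over the 4 P5 libraries alone the members were close to each other, at a difference of 0.174, with Odam at rank 19 for Amtn and Amtn at rank 36 for Odam. Genes near Amtn at P5 included Krt76 (0.075), Slc34a2 (0.089), Kcnk5 (0.096) and Fndc1 (0.112). Krt76 had a mean of only 18.3 normalized counts at P5, and it passed the minimum of 100 through its P12 mean of 1864. The 5 nearest to Odam were Serpinb3a (0.052), Car12 (0.064), Kel (0.080), Bcl6 (0.081) and Lgr6 (0.082). Serpinb3a likewise had a P5 mean of 20.7 and a P12 mean of 191, so that the likeness of these genes at P5 rests on few counts. With 4 libraries, of which 1 lies apart, all of these likenesses rest on a low value in library 5.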

How the data were processed

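The authors deposited a table of raw read counts per gene for the 8 libraries, and these counts are the only values used. The submitters' processing notes name CASAVA and the mm39 build, while the coordinates of Amtn and Odam in the table are those of GRCm38, which GENCODE M21 also gives. The aligner, the counting tool and the use of strand are not given in the sources used here. Genes were filtered with filterByExpr and fitted by age with edgeR 4.0.16 (TMM, quasi-likelihood test) in R 4.3.3, with Benjamini-Hochberg adjustment over all 16440 genes tested, and called at an adjusted p under 0.05. Ratios and single values were tested in an exact two-sided permutation test over the 8 libraries with SciPy 1.17.1. Promoter windows came from RefSeq. Alternatives were DESeq2 1.42.0 and its size factors, limma-voom 3.58.1, total count scaling, scaling without the 20 most abundant genes, no filter, at least 10 counts in every library, leaving out each library and a replicate block. The scripts were tested on simulated data. Named genes were Amtn, Odam, the genes of the lists and cell type markers, the nearest protein-coding gene on each side, and for each member the 5 genes with the nearest profile over 8 libraries and over the P5 libraries. The members and lists were chosen with earlier results of these data known.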

Additional observations from a re-analysis of the deposited data

Results flagged for a closer look

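The values of the listed genes, the ratio of Amtn to Odam, Krt13, Krt14, BC037156, Fth1 and the summed level of each cell type list were examined at each age for a library whose gap to the nearest other, on the log2 scale, took up most of the range of its group, which chance gives in about 1 in 20 groups. Of 140 combinations of a value and an age 8 had such a library, where 7 are expected at 1 in 20, and in 7 of the 8 it was P5 library 5. Amtn was at 5149 normalized counts there, against 16356 to 19787 in the other P5 libraries. Odam was at 6497, against 15868 to 18305. Csn3, the kappa-casein gene, was at 2103, against 13841 to 14951. Cbfb, the partner subunit of Runx factors, was at 2522, against 3434 to 3552. In the other direction, Dmp1, a gene of mineralized tissue matrix, was at 2078, against 1444 to 1515. Slc4a2, an anion exchanger gene, was at 6217, against 5604 to 5617, and Bmp2, a growth factor gene, at 681, against 522 to 531. The remaining case was Krt14, a keratin gene, at 31982 in P5 library 3, against 34535 to 34971. On the linear scale 6 of the 8 were still set apart, and Amtn and Odam were the pair that were not, with gaps of 0.766 and 0.794 of the range against 0.859 and 0.862 on the log2 scale. Genes picked for their likeness to Amtn or Odam, or for a high or low value in a library, were not examined, since the pick fixes their shape.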

How the results depend on the processing

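Amtn and Odam kept their direction and their call in 17 of 17 alternatives each. With any single library omitted the value was 1.57 to 2.04 for Amtn and 4.33 to 4.71 for Odam, and the other alternatives 1.60 to 2.22 and 4.29 to 4.95, with adjusted p of at most 0.00452 and 5.7e-06. The genes called numbered 8708 to 10030 with a library left out and 7710 to 11215 otherwise. Total count scaling moved the genes called higher to 8885 and those called lower to 2330, and a library left out gave 4309 to 4938 and 4364 to 5092. Listed genes called numbered 43 to 47, against 44. The difference in the log2 ratio of Amtn to Odam was -2.91 to -2.60 with a library left out, where the exact permutation p was 0.0571, the smallest that fewer libraries allow. With a replicate block over the 6 libraries that share a number, the paired difference was -2.70 (exact p = 0.25, the smallest for 3 pairs), Amtn was at 1.60 and Odam at 4.29. Profiles of libraries with the same number correlated at -0.027, 0.019 and -0.0005 across genes, so the numbers were not taken as a pairing.

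For 64 other genes (of the gene lists, the nearest profiles over 8 libraries, Krt13 and Krt14) 1045 of 1087 values kept direction and call, 16 lost the call, 16 gained it and 10 changed sign. Under total count scaling Sparc was at 0.16, Sparcl1 at 0.24, Slc4a2 at 0.0022 and Runx1 at 0.28. With a library left out the values were -0.020 to 0.079 for Dst, -1.32 to 0.063 for Car6 and -0.35 to 0.039 for Runx1. None of these genes was called in the main edgeR fit with all 8 libraries and TMM. Sparcl1 was called higher by edgeR under total count scaling (adjusted p = 0.0031) and lower without P12 library 4 (-0.18, adjusted p = 0.018), and the cause was not tested. Dst was called higher under total count scaling. In the maturation list, which holds Slc4a2 and Car6, 2 genes in place of 1 were lower with DESeq2, limma-voom or no filter, and without P12 library 4. The alternatives for cell type markers were chosen after seeing the data. The P5 library 5 differences under 3 other scalings, also chosen then, were -1.78 to -1.75 for Amtn and -1.38 to -1.36 for Odam.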

Other observations

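The genes furthest below the other P5 libraries in P5 library 5, chosen after their values were seen, were Car6 (log2 difference -3.32), Csn3 (-2.79), Slc24a4 (-2.48), Slc26a1, a sulfate transporter gene (-2.32), Cdkn2b, a cell cycle inhibitor (-2.25), Rcan1, a calcineurin regulator (-2.12), and Klk4 (-2.05). Amtn was at place 12 among 11086 genes.

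The genes furthest above the other P12 libraries in P12 library 4, also chosen after their values were seen, included the small nuclear RNA gene Rn7sk (1588 normalized counts against 70.4 to 283), CT010467.1 (205967 against 14990 to 37120), Gm23935 (134309 against 12237 to 24524), Lars2 (log2 difference 2.86), Slc7a11, the cystine transporter gene (2.46), and Car6 (2.29), where Amtn was at 0.82 and Odam at 0.04.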
